A study of Bos taurus with 90 samples.

Results

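Small RNA sequencing profiles of the duodenum epithelium and the jejunum epithelium of dairy cows fed alfalfa hay or rice straw were compared. These 24 of the 90 samples of the series were chosen by their tissue and diet labels, without use of any measured value, and comprised 12 duodenum and 12 jejunum samples, with 6 samples for each combination of tissue and diet. The cows were mid-lactation Chinese Holstein, 6 per diet, and the diet labels name the forage (alfalfa hay, corn stover or rice straw) on which the ration was based. According to the series design each cow gave both tissues, and samples of the same diet and replicate number were treated as 12 pairs, although no label states that the number marks the cow. The duodenum and jejunum samples of the corn stover cows (12 samples) entered only 1 comparison, given last. All animals were lactating dairy cows of 1 breed, so the values describe no other age, sex or physiological state.

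A miRNA is a short RNA that is cut from a hairpin precursor and guides the repression of messenger RNAs. The duodenum is the first segment of the small intestine and receives bile and pancreatic juice, whereas the jejunum follows it and carries out much of the absorption. The lining of both holds absorptive enterocytes, goblet cells, enteroendocrine cells that release hormones, and many leukocytes, above a layer of connective tissue, vessels and smooth muscle. Several miRNAs are known for 1 of these cell types, and others lie within the HOX gene clusters, whose genes mark position along the body axis and along the gut.

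The deposited value of a miRNA is its CPM, the reads of that miRNA scaled to a common total of reads mapped to annotated miRNAs. The files listed 338 miRNAs in duodenum and 337 in jejunum, with 331 in both, out of 388 listed in any of the 5 tissues of the series. Names are given without the bovine prefix. Total mapped reads, recovered from the step between CPM values, ranged from 5515376 to 15621501 in duodenum (median 8557554.5) and from 3987988 to 10383400 in jejunum (median 6983976.5). Jejunum had more reads in 3 of 12 pairs, and the difference did not pass an exact paired permutation test (two-sided p = 0.0859). A count of 3 reads was worth 0.192 to 0.752 CPM, so a miRNA at a few CPM rests on few reads. No 2 samples were identical. On the first principal component (21.6% of the variance) the duodenum sample of rice straw replicate 3 lay at 8.39, against -2.82 to 4.10 for the other duodenum samples, and on the second (13.6%) the jejunum sample of alfalfa hay replicate 3 lay at 6.90, against -2.47 to 2.86 for the other jejunum samples.

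The labels call both tissues epithelium, and the intestinal epithelial miRNAs were present at high levels. Over the same diets, miR-192, an abundant miRNA of gut epithelium and liver, averaged 251245 CPM in duodenum and 205880 CPM in jejunum. Its mean was 2790 CPM in rumen and 137149 CPM in liver (n = 12 each). The liver miRNA miR-122 was not listed in either intestinal tissue but averaged 11313 CPM in liver. The stratified epithelium miRNA miR-205 averaged 34202 CPM in rumen, 1.78 CPM in duodenum, and was not listed in jejunum. A miRNA known from other cell types was abundant as well. miR-143, known from smooth muscle and other mesenchymal cells, was the second most abundant miRNA in both tissues. It took 17.1% ± 2.9 of the mapped reads in duodenum and 19.3% ± 3.3 in jejunum (SD, n = 12). This high level was not particular to the intestine, with means of 182141 CPM in rumen, 164388 CPM in mammary gland and 123006 CPM in liver. These are bulk samples, in which fewer cells of a type and less of a miRNA per cell cannot be told apart.

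The main comparison asked which miRNAs differ between the adjoining segments. Of the 331 miRNAs listed in both tissues, 330 were above 1 CPM in more than 50 percent of the samples of at least 1 tissue and were tested, and only miR-2419-3p was not. With limma on log2(CPM + 1), with the pair as a block and Benjamini-Hochberg adjustment over the 330 miRNAs at 0.05, 45 miRNAs differed (13.6%), 31 of them higher in jejunum (9.39%) and 14 lower (4.24%). The differences were mostly modest. The fold of the higher miRNAs ran from 1.21 to 3.24 and that of the lower miRNAs from 1.30 to 2.00, with 5 miRNAs at a fold of at least 2 and 15 at a fold of at least 1.5. In all 45 the direction was shared by at least 9 of the 12 pairs, and in 9 by every pair. Over all 330 tested miRNAs, every pair also went the same way in 9. The same pairs chose the 45, so this count adds no separate support. The duodenum and jejunum samples did not overlap for 1 of the 330 miRNAs (0.303%), miR-10a. The balance of directions depended on scaling. With upper-quartile scaling of the CPM 30 miRNAs were higher and 26 lower, and with trimmed-mean scaling 34 were higher and 28 lower, against 31 and 14 as deposited. The median log2 fold change of all tested miRNAs was 0.05 as deposited and between -0.01 and 0.00 under both scalings, and 39 of the 45 miRNAs passed under both. The number higher also rested on single pairs, falling to 17 without alfalfa hay replicate 4 and to 20 without rice straw replicate 4. Without the pairs of the samples that lay apart, 21 were higher and 18 lower (without rice straw replicate 3) and 31 higher and 12 lower (without alfalfa hay replicate 3).

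**Figure D1:**
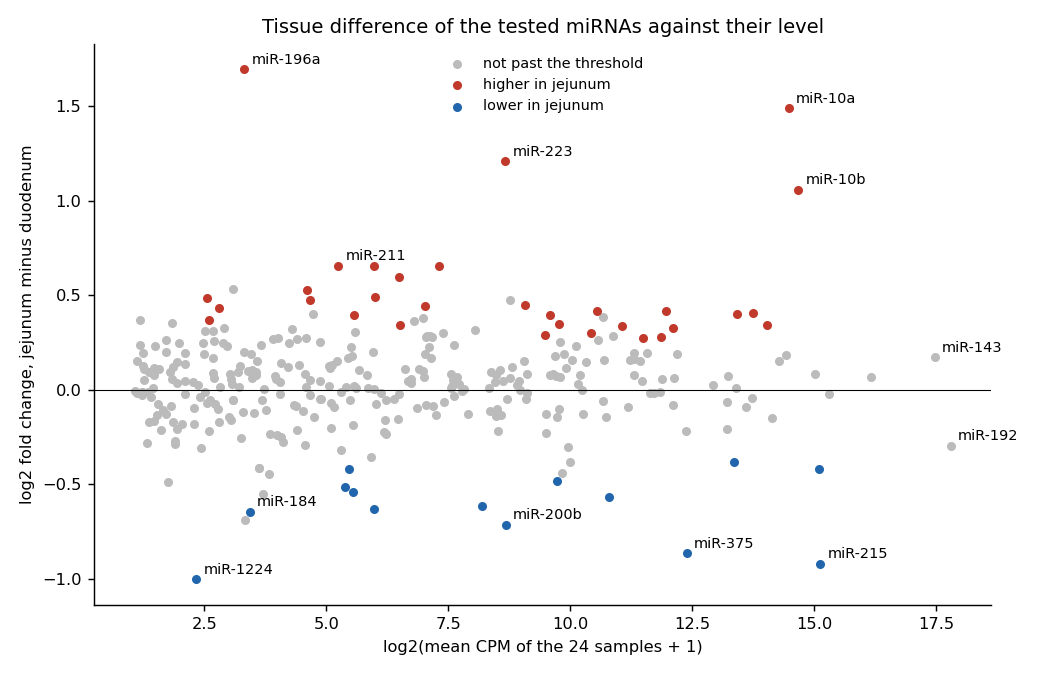
Log2 fold change (jejunum minus duodenum) of each of the 330 tested miRNAs against log2(mean CPM of the 24 samples + 1), coloured by the limma call. Most miRNAs lie near 0 at every level, and the 31 higher and 14 lower miRNAs include both abundant and rare ones, with miR-196a, miR-10a, miR-223 and miR-10b at the top.

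The miRNAs of the HOX gene clusters rose most. All 3 that were tested, miR-10a, miR-10b and miR-196a, were higher in jejunum, against 9.39% of all 330 tested miRNAs. Their median log2 fold change was 1.49, against 0.05 for all tested, and their summed level was higher in jejunum in 12 of 12 pairs. In the RefSeq annotation of the cow, the gene for miR-10a lies within HOXB3 near HOXB4, that for miR-10b within HOXD4, and the pair of miR-196a genes within HOXB9 and next to HOXC10. miR-10a was measured at 3468 CPM in the lowest, 11782 in the median and 26674 in the highest duodenum sample, and at 27082, 30408 and 47729 CPM in jejunum. Every jejunum sample was thus above every duodenum sample, though the lowest of them lay close to the highest duodenum sample, and the duodenum samples were the more spread. The log2 fold change was 1.49 (SE 0.23, adjusted p = 0.000283).

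miR-10b, which differs from miR-10a by little in sequence, ran from 9477 to 19862 CPM in duodenum (median 15805) and from 16480 to 75615 CPM in jejunum (median 26951). Here the jejunum was the more spread tissue, and 3 of its samples, at 64189, 66518 and 75615 CPM, stood above the rest. The level was higher in jejunum in all 12 pairs, with a log2 fold change of 1.06 (SE 0.17, adjusted p = 0.000283), and 0.998 without rice straw replicate 5, whose jejunum sample was the highest of its diet. miR-196a was rare, at 0.384 to 12.5 CPM in duodenum (median 2.46) and 4.21 to 26.3 CPM in jejunum (median 12.3). The groups overlapped, with 11 of 12 pairs higher in jejunum, and the log2 fold change was 1.69 (SE 0.27, adjusted p = 0.000283). At these low levels its size depended on the pseudocount, from 2.07 with 0.1 CPM to 1.04 with 5 CPM. Reads of miR-10a and miR-10b could have been shared in the alignment, so their separate levels are uncertain to that extent. The remaining HOX members of the list, miR-196b and miR-615, were not listed in both tissues.

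**Figure D2:**
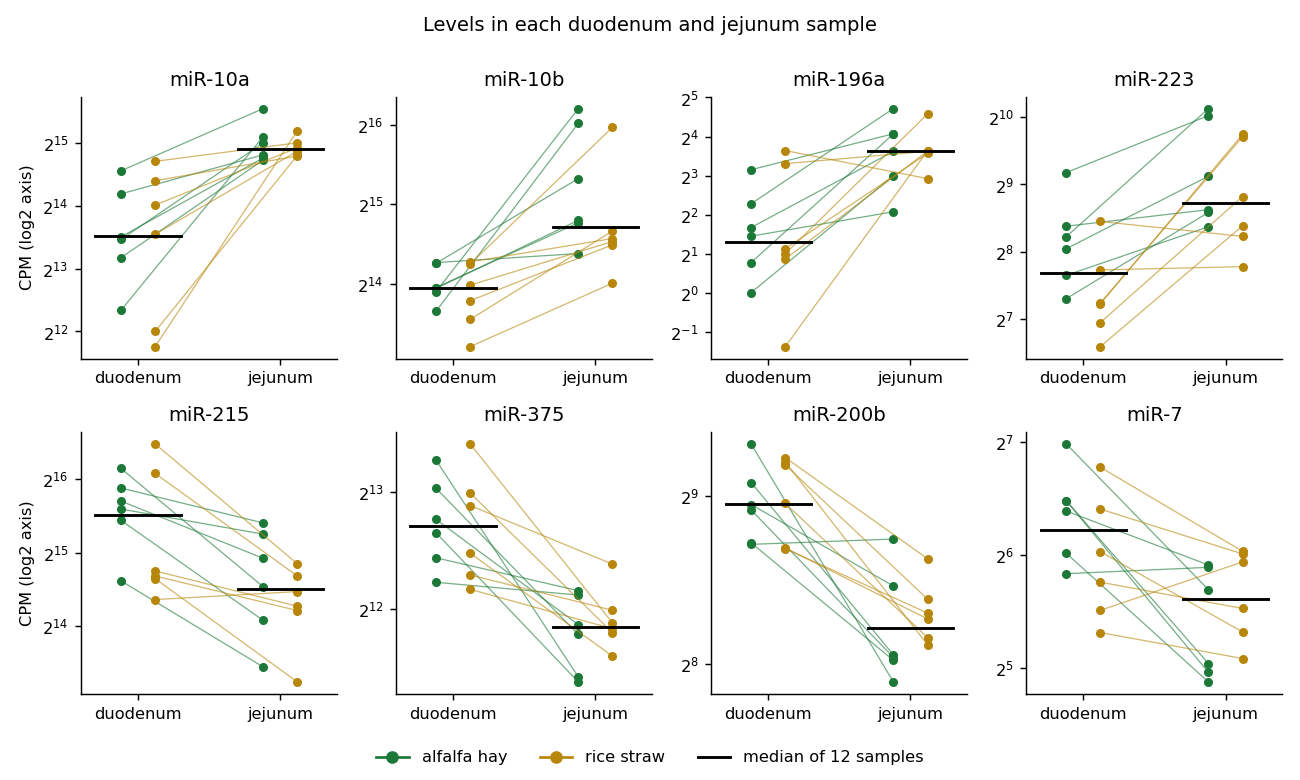
CPM (log2 axis) of 8 miRNAs in each duodenum and jejunum sample, with a line joining samples of the same diet and replicate number, points coloured by diet and a black bar at the median of 12 samples. Lines rise from duodenum to jejunum in all 12 pairs for miR-10a and miR-10b and in 11 for miR-196a and miR-223, and fall in all 12 for miR-375.

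Of the 3 miRNAs known from intestinal epithelium, miR-215 and miR-194 were lower in jejunum and miR-192 did not pass (list median -0.38). Of all 330 tested miRNAs 4.24% were lower. The genes of miR-215 and miR-192 each have a copy of the miR-194 gene as neighbour. The summed level, which is mostly miR-192, was 231619 to 411412 CPM in duodenum and 144396 to 298094 CPM in jejunum. It was higher in jejunum in 2 of 12 pairs. miR-215 fell most, from 21032 to 91487 CPM in duodenum (median 46956) to 9656 to 43367 CPM in jejunum (median 23210). The ranges overlapped, but the jejunum sample was the lower in 11 of 12 pairs (log2 fold change -0.92, SE 0.14, adjusted p = 0.000283). miR-194 ran from 9581 to 14928 CPM in duodenum (median 11213) and from 6786 to 11877 CPM in jejunum (median 9213). It was lower in jejunum in every pair (-0.38, SE 0.09, adjusted p = 0.00568). miR-192, the most abundant miRNA of both tissues, ran from 193129 to 327244 CPM in duodenum and from 126482 to 249455 CPM in jejunum, and its log2 fold change of -0.29 (SE 0.10) did not pass (adjusted p = 0.0536). miR-215 is close in sequence to miR-192, and the way shared reads were assigned to them could move both values.

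The miR-200 family, which holds cells in an epithelial state by repressing the transcription factors ZEB1 and ZEB2, also had lower members in jejunum. Of 5 members 3 fell and none rose (median log2 fold change -0.48), where 4.24% of all 330 tested miRNAs fell. Under each other scaling miR-429 passed as well. miR-200b ran from 412 to 635 CPM in duodenum (median 496) and from 238 to 429 CPM in jejunum (median 297). Only the highest jejunum sample reached the duodenum range, and the level was lower in jejunum in 11 of 12 pairs (-0.71, SE 0.11, adjusted p = 0.000283). miR-200a ran from 1320 to 3187 CPM in duodenum and from 1063 to 1810 CPM in jejunum (-0.57, SE 0.12, adjusted p = 0.00433), and miR-200b and miR-200a come from 1 group of neighbouring hairpins with miR-429. From the other group, miR-200c ran from 707 to 1601 CPM in duodenum and from 509 to 922 CPM in jejunum (-0.48, SE 0.12, adjusted p = 0.0111). Its neighbour miR-141 had the smallest change of the family (-0.22, adjusted p = 0.231).

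The main miRNA known from enteroendocrine cells, miR-375, was lower in jejunum. Of the 9 miRNAs on the enteroendocrine and neural list 2 fell and none rose (median -0.21), where 4.24% of all 330 tested miRNAs fell. The summed level, which is mostly miR-375, was 4892 to 11147 CPM in duodenum and 2820 to 5605 CPM in jejunum. It was lower in jejunum in all 12 pairs. miR-375, which is best known from pancreatic islets and is also made in enteroendocrine and goblet cells, ran from 4607 to 10852 CPM in duodenum (median 6692) and from 2669 to 5344 CPM in jejunum (median 3698). It fell in every pair, and only the highest jejunum sample reached the duodenum range (-0.86, SE 0.14, adjusted p = 0.000283). miR-7, a miRNA of endocrine cells and neurons, ran from 39.7 to 126 CPM in duodenum (median 74.5) and from 29.3 to 65.4 CPM in jejunum (median 48.9). Its ranges overlapped widely and 2 pairs went the other way (-0.63, SE 0.15, adjusted p = 0.00864).

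Outside the list, miR-153 fell as well, whose genes lie within PTPRN and PTPRN2. It was named for the size of its fall, not as a cell type marker. It ran from 27.4 to 107 CPM in duodenum and from 24.4 to 46.0 CPM in jejunum (-0.54, SE 0.14, adjusted p = 0.0132). The remaining list members did not pass. miR-124a and miR-124b had identical values in every sample (-0.41, adjusted p = 0.158), as did miR-129 and miR-129-5p, so these 4 names hold only 2 measurements. The neural miRNA miR-9-5p had a log2 fold change of 0.08 (adjusted p = 0.711).

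Of the 7 leukocyte miRNAs, miR-223 and miR-146a rose and none fell (median 0.27), where 9.39% of all 330 tested miRNAs rose. The summed level of the list was 18035 to 36882 CPM in duodenum and 24280 to 37762 CPM in jejunum, higher in jejunum in 8 of 12 pairs, and all 7 members were listed in both tissues. miR-223, a miRNA of neutrophils and other myeloid cells, ran from 96.4 to 579 CPM in duodenum (median 207) and from 220 to 1119 CPM in jejunum (median 424). It was higher in jejunum in 11 of 12 pairs with a log2 fold change of 1.21 (SE 0.21, adjusted p = 0.000507). miR-146a, which is induced by inflammatory signalling and dampens it, ran from 1724 to 4774 CPM in duodenum and from 3390 to 6167 CPM in jejunum. Its change was smaller (0.42, SE 0.13, adjusted p = 0.0301) and was lost in 8 of 20 alternative analyses. The lymphocyte miRNA miR-150 (0.39, adjusted p = 0.0560) and the pan-leukocyte miRNA miR-142-5p (0.19, adjusted p = 0.294), the most abundant of the list, did not pass. The other arm, miR-142-3p (0.27, adjusted p = 0.0824), passed as higher under both other scalings among other alternatives (adjusted p = 0.0460 and 0.0275). Of the red blood cell miRNAs none of 3 passed (median 0.06), and their summed level was 320 to 633 CPM in duodenum and 345 to 1005 CPM in jejunum. The part of blood or leukocyte content in the other differences was not tested.

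Outside the lists, miR-181a and miR-181b rose, which are made in lymphocytes among many other cells. miR-181a ran from 8483 to 17102 CPM in duodenum and from 13646 to 18606 CPM in jejunum (0.41, SE 0.10, adjusted p = 0.0111). miR-181b, made from the same pair of precursor transcripts, ran from 332 to 686 CPM and from 508 to 810 CPM (0.45, SE 0.12, adjusted p = 0.0155). Both overlapped between tissues and were higher in jejunum in 9 of 12 pairs.

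Of the 4 miRNAs known from fibroblasts and other mesenchyme 3 were higher in jejunum (median 0.34), against 9.39% of all 330 tested. The summed level of the 4 was 4661 to 9177 CPM in duodenum and 5492 to 10138 CPM in jejunum. It was higher in jejunum in 10 of 12 pairs. miR-214 ran from 79.8 to 153.96 CPM in duodenum (median 104) and from 112 to 234 CPM in jejunum (median 145), with 11 of 12 pairs higher in jejunum (0.44, SE 0.09, adjusted p = 0.00381). miR-199a, which has a gene beside that for miR-214 within DNM3 and another within DNM2, rose on both arms of its hairpin, miR-199a-5p by 0.35 (SE 0.09, adjusted p = 0.0111) and miR-199a-3p by 0.33 (SE 0.11, adjusted p = 0.0479). The second of these was lost in 8 of 20 alternative analyses. miR-199b did not pass (0.08, adjusted p = 0.637).

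Neither smooth muscle miRNA passed. miR-143 had a log2 fold change of 0.17 (SE 0.10, adjusted p = 0.272) and miR-145 of 0.19 (SE 0.09, adjusted p = 0.133), and the summed level was 125618 to 215135 CPM in duodenum and 147053 to 246794 CPM in jejunum, higher in jejunum in 10 of 12 pairs. miR-490, whose gene lies within CHRM2, belongs to no list and was named for the size of its rise, not as a cell type marker. It ran from 41.5 to 162 CPM in duodenum (median 64.0) and from 63.2 to 171 CPM in jejunum (median 97.1). It was higher in jejunum in 11 of 12 pairs (0.60, SE 0.13, adjusted p = 0.00385). Of the 4 striated muscle miRNAs only miR-133b rose (0.43, SE 0.12, adjusted p = 0.0213), at a median of 5.17 CPM in duodenum and 6.46 CPM in jejunum. For the endothelium, miR-126-5p rose (0.34, SE 0.11, adjusted p = 0.0363) but was lost in 10 of 20 alternative analyses, both scalings among them, and miR-126-3p, the other arm, did not pass (0.19, adjusted p = 0.276). Under the deposited values and both other scalings, the medians of these muscle and endothelial lists and of the leukocyte and mesenchyme lists were positive. Those of the intestinal epithelium, miR-200 and enteroendocrine lists were negative. The stratified epithelium list, with only miR-31 tested, was at 0.007 as deposited. It was at -0.049 with upper-quartile and -0.044 with trimmed-mean scaling. Since CPM are shares of a fixed total, a rise of 1 group and a fall of another cannot be told apart from these values alone, and the part of tissue composition in the single differences was not tested.

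**Figure D3:**
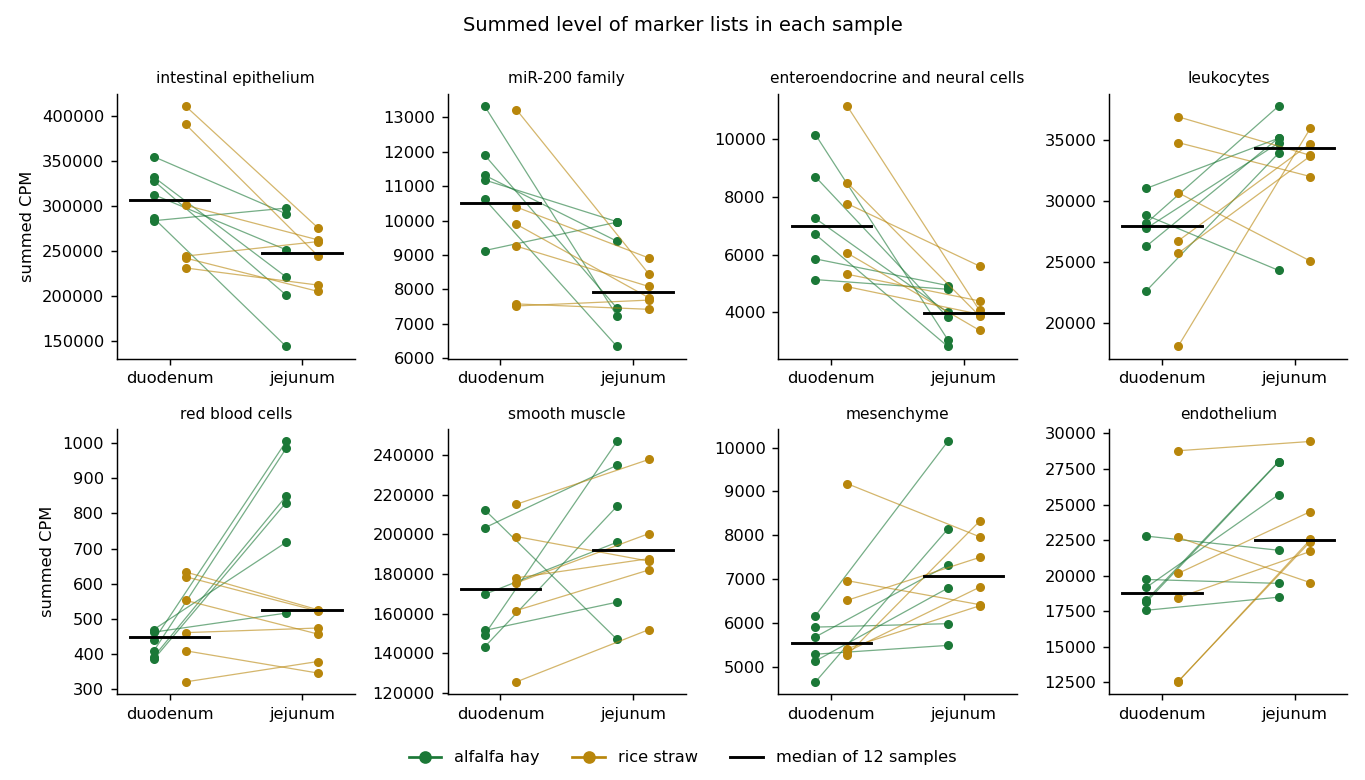
Summed CPM of 8 marker lists in each sample, on linear axes that do not start at 0, with a line joining samples of the same diet and replicate number, points coloured by diet and a black bar at the median of 12 samples. The intestinal epithelium and miR-200 sums fall in 10 of 12 pairs and the enteroendocrine sum in all 12, the smooth muscle and mesenchyme sums rise in 10, and the red blood cell sum rises in all 6 alfalfa hay pairs. The intestinal epithelium sum is mostly miR-192 and the miR-200 sum mostly miR-141, and neither miRNA passed.

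Several other miRNAs rose without belonging to these lists. The arms of the miR-1388 hairpin moved together, miR-1388-5p from 59.5 to 231 CPM in duodenum (median 110) to 122 to 308 CPM in jejunum (median 184) with a log2 fold change of 0.65 (SE 0.14, adjusted p = 0.00376), and miR-1388-3p by 0.65 (SE 0.14, adjusted p = 0.00381). miR-363, of the X-linked relative of the miR-17-92 cluster, ran from 12.6 to 26.7 CPM in duodenum and from 20.7 to 31.9 CPM in jejunum and was higher in all 12 pairs (0.53, SE 0.11, adjusted p = 0.00376). It was the only 1 of 15 members of miR-17-92 and its relatives to pass, and its neighbour miR-106a had the opposite sign (-0.69) and passed as lower under both other scalings among other alternatives.

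miR-30a-5p, an abundant miRNA of many epithelia, ran from 7516 to 11071 CPM in duodenum and from 10848 to 16473 CPM in jejunum. It too was higher in every pair (0.40, SE 0.09, adjusted p = 0.00433), and was the only 1 of 7 members of the miR-30 family to pass. miR-218, whose genes lie within SLIT2 and SLIT3, ran from 35.6 to 69.6 CPM in duodenum and from 53.7 to 88.3 CPM in jejunum (0.49, SE 0.12, adjusted p = 0.00724). miR-874 ran from 14.5 to 25.7 CPM and from 19.8 to 37.6 CPM (0.48, SE 0.13, adjusted p = 0.0175). miR-211, whose gene lies within TRPM1, rose by 0.66 (SE 0.20, adjusted p = 0.0319) but was lost in 8 of 20 alternative analyses.

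Among the remaining miRNAs that fell, miR-130b and miR-301b come from neighbouring hairpins and moved together. miR-130b ran from 250 to 440 CPM in duodenum (median 347) and from 109 to 353 CPM in jejunum (median 244) and fell in every pair (-0.61, SE 0.15, adjusted p = 0.00853). miR-301b ran from 29.6 to 60.3 CPM and from 14.5 to 46.7 CPM (-0.51, SE 0.15, adjusted p = 0.0237). Their relative miR-130a, from a gene elsewhere, had a positive log2 fold change (0.29, SE 0.09, adjusted p = 0.0312) that was lost in 6 of 20 alternative analyses, and miR-301b was lost in 2.

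miR-148a, which is among the 10 most abundant miRNAs and known from liver and digestive tissues, ran from 33127 to 48811 CPM in duodenum and from 19260 to 42201 CPM in jejunum (-0.42, SE 0.12, adjusted p = 0.0227). Its relatives miR-148b and miR-152 did not pass (0.08 and 0.02). miR-378b fell in every pair (-0.42, SE 0.11, adjusted p = 0.0136), from a median of 45.4 CPM to 35.6 CPM. Its relatives miR-378 (-0.21, adjusted p = 0.195) and miR-378c (-0.099, adjusted p = 0.585) had the same sign without passing. miR-184, known from cornea and nervous tissue, ran from 4.05 to 20.1 CPM in duodenum and from 3.30 to 14.5 CPM in jejunum (-0.64, SE 0.17, adjusted p = 0.0136). The rarest miRNA with a large fall was miR-1224, with a median of 6.43 CPM in duodenum and 2.55 CPM in jejunum (-1.001, SE 0.17, adjusted p = 0.000373), which is named although it was below the level set for named miRNAs.

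Several further families and clusters are given beside the share of all 330 tested miRNAs that passed, which was 13.6%. At that share a list of a few members can hold no call, so its absence says little about the family. None of the 10 let-7, 4 miR-29, 6 miR-424 cluster or 2 miR-21 miRNAs passed, and under each other scaling 1 let-7 family member (miR-98), 1 miR-29 member (miR-29c) and 1 of the miR-424 cluster (miR-450a) passed as lower. miR-21-5p ran from 28258 to 48282 CPM in duodenum and from 27338 to 49577 CPM in jejunum (-0.02, SE 0.09, adjusted p = 0.900). Of the 29 miRNAs of the imprinted DLK1-DIO3 cluster only miR-127 rose (0.34, SE 0.11, adjusted p = 0.0363), which did not pass under either other scaling. Of the 22 miRNAs of the ruminant miR-2284 and miR-2285 family only miR-2284t-3p rose, at a median of 3.86 CPM in duodenum and 5.76 CPM in jejunum, and it was lost in 5 of 19 alternative analyses. Under the other scalings 1 of this family was higher and 2 (upper-quartile) or 3 (trimmed-mean) lower, namely miR-2284x, miR-2284z and, with trimmed-mean scaling, miR-2284y. Of miR-132, miR-212 and miR-184 only miR-184 passed. Of 26 hairpins with both arms tested, both arms passed for 3 (miR-1388, miR-151 and miR-199a), each with the same direction, and 1 arm for 2 (miR-126 and miR-455). For miR-151 the calls were lost in 8 (3p, both scalings among them) and 7 (5p) of 20 alternative analyses.

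**Figure D4:**
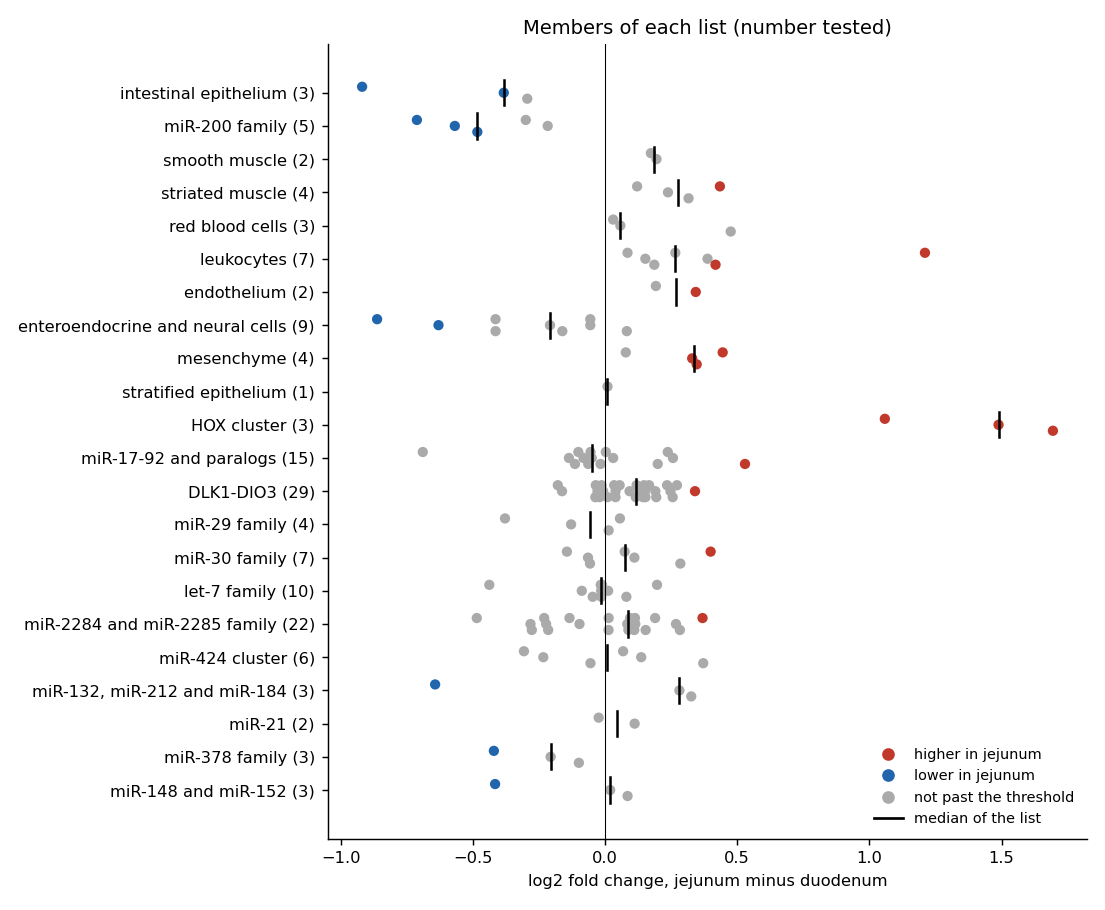
Log2 fold change (jejunum minus duodenum) of each tested member of 22 lists, with the number tested in brackets, coloured by the limma call, and a black bar at the median of the list. The HOX cluster list lies farthest to the right, the intestinal epithelium, miR-200 and miR-378 lists lie wholly below 0, and most other lists centre near 0 with few coloured points.

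The 10 miRNAs with the highest mean over the 24 samples together took 70.6% ± 2.6 of the mapped reads in duodenum and 69.6% ± 1.9 in jejunum (SD, n = 12). Within this group miR-10a rose from 1.37% ± 0.78 to 3.22% ± 0.58 and miR-10b from 1.59% ± 0.34 to 3.66% ± 2.04, while miR-215 fell from 4.72% ± 2.29 to 2.44% ± 1.02. miR-26a (0.07, adjusted p = 0.711) and miR-27b (0.09, adjusted p = 0.520) did not pass. The miRNAs listed in only 1 tissue, 7 in duodenum and 6 in jejunum, were all rare, with means between 0.952 and 4.01 CPM. They included miR-216b, which is known from the acinar cells of the pancreas, in duodenum (0.324 to 1.76 CPM). The level of a miRNA in a tissue whose files do not list it was not analysed here.

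The same contrast was then read within each forage. In the 6 alfalfa hay pairs 43 of 330 miRNAs differed (13%), 27 higher and 16 lower in jejunum, and with upper-quartile scaling 18 were higher and 25 lower. In the 6 rice straw pairs 4 differed (1.21%). These were miR-10b (0.86, SE 0.16, adjusted p = 0.0366), miR-200b (-0.68, SE 0.12, adjusted p = 0.0366), miR-375 (-0.79, SE 0.16, adjusted p = 0.0424) and miR-1224 (-1.11, SE 0.23, adjusted p = 0.0424). The rice straw calls rested on single pairs, with no call in the limma fit without replicate 2 or without replicate 4 (37 and 40 miRNAs at an unadjusted p under 0.05) and 8 calls without replicate 1 or without replicate 6.

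A different number of calls does not by itself show that the forages differ. The test of the difference itself, the interaction of tissue and forage, passed for 2 of 330 miRNAs (0.606%), and 37 had an unadjusted p under 0.05. With 6 pairs per forage this test can miss differences, so its few calls do not show that the forages agree. Of the 43 miRNAs called in alfalfa hay, 34 had the same sign in rice straw (79.1%, against 62.4% of all 330), and 16 of these (37.2% of the 43) had an unadjusted p under 0.05 there, against 51 of all 330 (15.5%) in either direction. Their median log2 fold change, signed by the alfalfa hay direction, was 0.74 in alfalfa hay, where they were chosen, and 0.26 in rice straw. miR-10a had nearly the same estimate in alfalfa hay (1.45, SE 0.21) and rice straw (1.52, SE 0.36), as had miR-196a (1.68, SE 0.26 and 1.70, SE 0.44) and miR-215 (-0.96, SE 0.18 and -0.88, SE 0.21). Estimates were farther apart for miR-184 (-1.09, SE 0.20 and -0.20, SE 0.19, interaction adjusted p = 0.174) and miR-7 (-0.95, SE 0.20 and -0.31, SE 0.16, interaction adjusted p = 0.315), without passing.

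miR-486, a miRNA of red blood cells and muscle, was the first of the 2 miRNAs whose tissue difference differed between forages. In alfalfa hay it was measured at 294 to 338 CPM in duodenum and 417 to 826 CPM in jejunum. In rice straw it was measured at 244 to 513 CPM and 297 to 413 CPM. The log2 fold change was 1.04 (SE 0.16) in alfalfa hay and -0.09 (SE 0.12) in rice straw, and the difference between them 1.13 (SE 0.21, adjusted p = 0.00862). The other red blood cell miRNA with a large share of the list, miR-451, had estimates of 0.40 (SE 0.18) and -0.28 (SE 0.15). The part of blood content in this difference was not tested. miR-328, a rare miRNA, was measured at 5.24 to 10.9 CPM in duodenum and 8.64 to 15.02 CPM in jejunum of alfalfa hay cows, and at 7.62 to 18.6 CPM and 7.29 to 11.1 CPM in rice straw. Its direction was opposite, at 0.59 (SE 0.17) and -0.43 (SE 0.16), with a difference of 1.03 (SE 0.22, adjusted p = 0.0228).

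**Figure D5:**
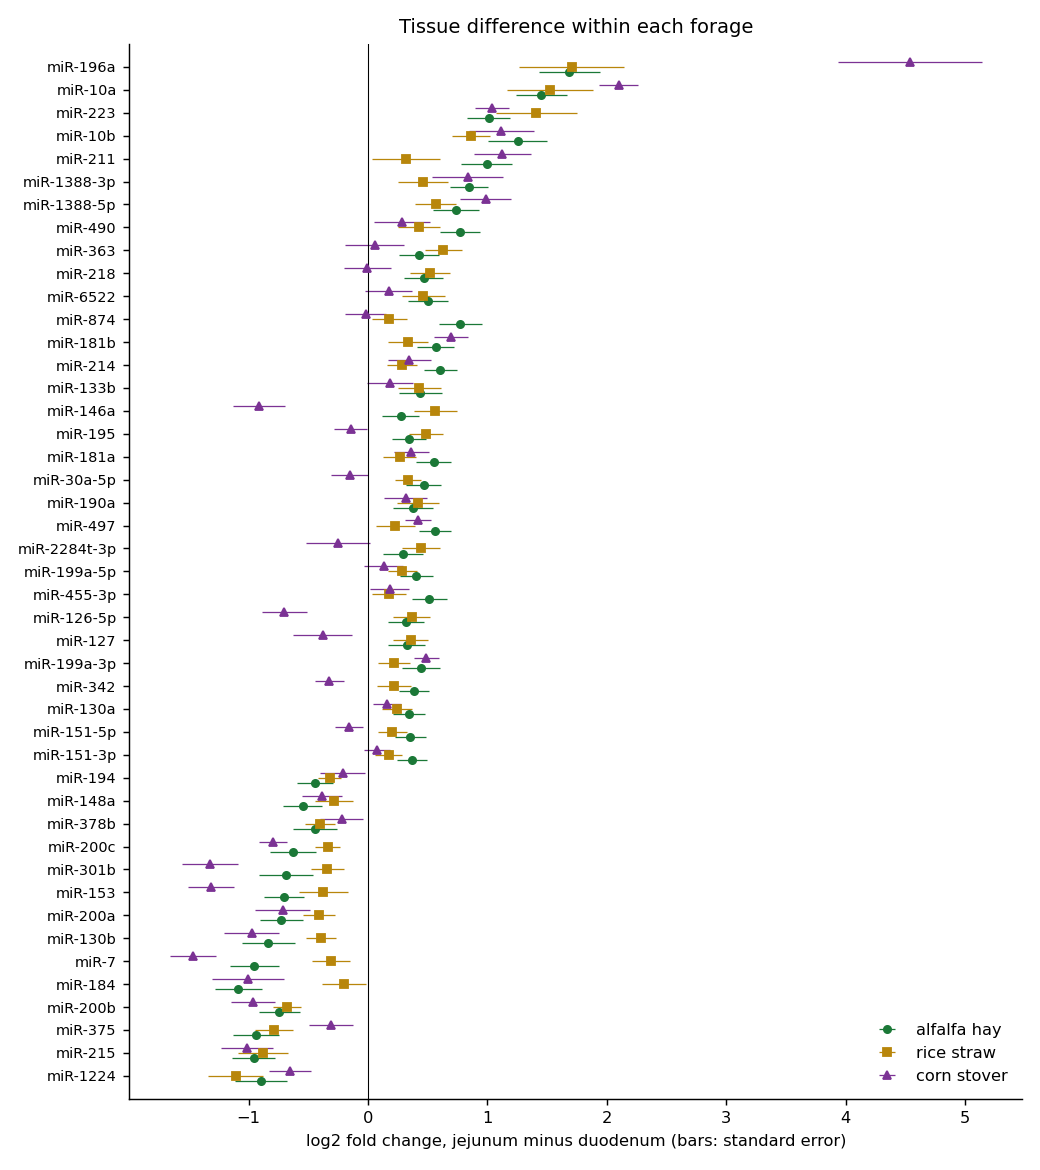
Log2 fold change (jejunum minus duodenum) with its standard error within alfalfa hay (circles), rice straw (squares) and corn stover (triangles) for the 45 miRNAs that differed in the pooled comparison, which used the first 2 forages. The alfalfa hay and rice straw points lie on the same side of 0 for each miRNA, which the choice of these miRNAs over both forages favours. The corn stover points of miR-146a, miR-126-5p, miR-127 and miR-342 lie on the other side and that of miR-196a lies far to the right.

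The tissue difference was last compared with that in corn stover. In 3 of its 6 jejunum samples, replicates 1, 2 and 6, miRNAs outside the deposited list took 221 to 440 CPM, against 42.4 to 72.6 CPM in the other 33 duodenum and jejunum samples. Of the 45 miRNAs, 35 had the same sign in corn stover (77.8%, against 54.8% of all 330). The share with the same sign and an unadjusted p under 0.05 in the limma fit there was 48.9% of the 45. Of all 330, 46.7% had such a p in either direction. That share asks for no matching sign, so it is a wider measure than that of the 45 and the shares cannot be compared directly. The tissue difference in corn stover departed from that in the other forages for 82 of 330 miRNAs (24.8%), 34 more positive and 48 more negative, with a median of -0.15 over all tested miRNAs. Without the 3 corn stover pairs named above the numbers were 9 and 16, and without corn stover replicate 1 or 4 alone the number more positive was 21 or 22.

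Among the 45 miRNAs the interaction with corn stover passed for 11. miR-196a was higher in jejunum in all 3 forages, but its log2 fold change was 4.54 (SE 0.60) in corn stover, where the jejunum samples ran from 13.2 to 324 CPM and the pair differences were 4.60 to 7.15 in replicates 1, 2 and 6 and 2.39 to 3.32 in the other 3. That exceeded the pooled value of the other forages by 2.85 (SE 0.64, adjusted p = 0.00260). miR-7, miR-153 and miR-301b were lower in jejunum in all forages and more so in corn stover, by -0.84, -0.78 and -0.81 (adjusted p = 0.0267, 0.0261 and 0.0389). The other 7 had the opposite sign in corn stover. miR-146a was the farthest of these, at 3581 to 4773 CPM in duodenum and 1163 to 4109 CPM in jejunum of corn stover cows, with a log2 fold change of -0.91 (SE 0.22) and a difference from the other forages of -1.33 (SE 0.25, adjusted p = 0.000537). miR-126-5p had a log2 fold change of -0.70 (SE 0.19) in corn stover and a difference of -1.04 (SE 0.21, adjusted p = 0.00108). For miR-10a, miR-10b, miR-215, miR-200b and miR-223 the interaction did not pass (adjusted p from 0.238 to 0.897), and their estimates in corn stover were 2.10, 1.12, -1.01, -0.96 and 1.04. The miR-10b estimate joined unlike pairs, with differences of 1.08 to 2.43 in replicates 1, 2 and 6 and of 0.34 to 0.48 in the other 3, and for miR-200b these were -0.66 to -0.41 and -1.66 to -1.13. For miR-375 the estimate was -0.31 (SE 0.19), with an interaction of 0.55 (SE 0.25, adjusted p = 0.102) and pair differences of 0.05 to 0.39 in replicates 1, 2 and 6 and of -1.03 to -0.63 in the other 3.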

How the data were processed

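Small RNA libraries were made from total RNA of about 100 mg of frozen tissue and sequenced as single reads. The authors removed low-quality reads with CASAVA 1.8 (named in the submitters' processing notes), trimmed adaptors and matched reads against cow miRNA hairpins in sRNAbench, with mismatches and multiple mapping allowed, and deposited 1 file per sample with CPM values, scaled to the total of reads on annotated miRNAs. The genome build of any coordinates in the authors' processing is not given in the sources used here, and no coordinates of theirs were used. The assembly named below served only to read neighbouring genes.

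From these CPM, totals of mapped reads were recovered from the step between values (8094 of 8094 values whole within 0.01 reads). limma 3.58.1 in R 4.3.3 (lmFit, eBayes with an intensity trend) was fitted to log2(CPM + 1) with the pair of diet and replicate number as a block, two-sided, with Benjamini-Hochberg adjustment at 0.05. A miRNA was tested when listed in both tissues and above 1 CPM in more than 50 percent of the samples of at least 1 of them. Fold changes are on the log2(CPM + 1) scale and understate those of rare miRNAs. Fits were made over both forages, within each forage, and with the interaction of tissue and forage, and were tested on simulated data. Replicates come from different cows as far as the series design states, and no label gives a batch, lane or date.

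Named were the 12 largest rises and 12 largest falls with a mean of at least 10 CPM in 1 tissue, the 10 most abundant miRNAs, and members of 24 lists. Members and lists were chosen with earlier results of these data known. Neighbouring genes were read from a RefSeq table of the assembly ARS-UCD2.0, in which 315 of 330 miRNAs matched by symbol, with neighbours within 10000 bases. Alternatives were the block, the pseudocount, the filter, the scaling, each pair left out, and limma voom weights on the implied reads, the last chosen after seeing the data. Tables and figures used Python 3.11.15, pandas 2.3.3, scipy 1.17.1 and matplotlib 3.10.9.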

Additional observations from a re-analysis of the deposited data

Results flagged for a closer look

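In groups of 6 samples (1 tissue and 1 diet), the highest or lowest sample lay far from the others of its group in 12 of 160 groups examined, over 40 miRNAs. Chance flags about 1 in 20 groups. In jejunum of rice straw cows, replicate 5 was high for miR-10b (64189 CPM, others 16480 to 25990), miR-196a (23.9 CPM, others 7.58 to 12.4) and miR-184 (14.5 CPM, others 5.04 to 7.49), and low for miR-142-5p (16733 CPM, others 23449 to 26388). In the same group replicate 4 was high for miR-127 (3080.0 CPM, others 1841 to 2161) and replicate 6 for miR-199a-5p (1124 CPM, others 871 to 912). In jejunum of alfalfa hay cows, replicate 6 was high for miR-211 (101 CPM, others 29.1 to 46.3), replicate 4 high for miR-214 (234 CPM, others 140 to 166), and replicate 3 low for miR-142-5p (15660 CPM, others 23480 to 26781). In duodenum, replicate 1 of rice straw was high for miR-1388-5p (231 CPM, others 79.9 to 130), replicate 4 of rice straw low for miR-27b (28399 CPM, others 32623 to 35011), and replicate 3 of alfalfa hay low for miR-490 (44.3 CPM, others 59.99 to 67.5).

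Differences of the tissue contrast between forages passed limma's interaction test for these miRNAs. Alfalfa hay exceeded rice straw by 1.13 for miR-486 and by 1.03 for miR-328 (log2). Corn stover departed from the other forages by 2.85 for miR-196a and 0.64 for miR-143, and by -1.33 for miR-146a, -1.04 for miR-126-5p, -0.84 for miR-7, -0.81 for miR-301b, -0.78 for miR-153, -0.72 for miR-127, -0.55 for miR-30a-5p and -0.53 for miR-26a.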

How the results depend on the processing

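None of the 45 miRNAs changed direction in any alternative of the pooled comparison, and 29 passed in every alternative that tested them. Leaving out 1 pair at a time gave 17 to 38 higher and 12 to 18 lower miRNAs. Within alfalfa hay it gave 17 (without replicate 5) to 25 higher and 11 to 20 lower, and within rice straw 0 to 5 and 0 to 4. The interaction of alfalfa hay and rice straw gave 1 to 2 and 0 to 2, with 1 call more positive without alfalfa hay replicate 2 or 6 or rice straw replicate 1, 5 or 6, and 2 more negative without alfalfa hay replicate 4 or 5 or rice straw replicate 2. That of corn stover gave 21 to 37 and 34 to 62.

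With upper-quartile scaling 26 were lower in the pooled comparison, 25 lower within alfalfa hay, 2 higher and 1 lower within rice straw, and 2 more negative in the interaction of alfalfa hay and rice straw. Trimmed-mean scaling gave 28 lower. With voom weights 1 was lower within rice straw. Without the 3 corn stover pairs with many unlisted reads, an alternative chosen after seeing the data, the interaction gave 9 and 16. miR-21-5p, which did not pass, changed sign without alfalfa hay replicate 3, with values from -0.0811 to 0.0113 over the pairs left out. The test of mapped reads gave an exact p of 0.0127 to 0.169 without 1 pair, with p = 0.0498 without rice straw replicate 6. The causes of these changes were not tested.

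The numbers did not pair the samples by every pair, since deviations from the group means correlated above 0.1 in 9 of 12 pairs (-0.30 to 0.57), and 18 of 24 samples correlated best with their own number. With no replicate block, 30 miRNAs were higher and 15 lower in the pooled comparison, 29 and 15 within alfalfa hay, 0 and 2 within rice straw (35 at an unadjusted p under 0.05), 1 and 0 in the interaction of alfalfa hay and rice straw (26 at an unadjusted p under 0.05), and 26 and 40 in that of corn stover. The planned count-based tests were not run, because the deposited values are CPM and too few of them are low enough for the recovered reads to meet the criterion set for treating them as counts. Read totals are therefore implied by the CPM rather than deposited. Depth limits the rare miRNAs, since 3 reads were worth up to 0.752 CPM.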
